A study of Mus musculus with 4 samples.

Results

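Peaks at least 2000 bp wide were examined in Ruvbl2 CUT&Tag libraries of mouse bone marrow cells. A peak entered when its end minus its start was 2000 bp or more on chromosomes 1 to 19 in any of the 4 deposited peak lists, and such peaks were joined over libraries wherever they shared at least 1 bp. This gave 1649 wide regions, while peaks of every width joined in the same way formed 690059 regions. Width chose the regions, so widths, peak heights and the libraries that hold them are given as descriptions without a test. Leukaemia stem cells (LSC, 2 libraries) were sorted as CD34+ and CD16/32+ cells of the Lin-, c-Kit+ and Sca-1- marrow fraction of Nup214fl/+ mice with disease driven by the MLL-AF9 fusion. Haematopoietic stem cells (HSC, 2 libraries) were sorted as CD48-, CD150+ LSK cells of Nup214fl/+ mice without the fusion. All 4 libraries thus came from mice with 1 floxed Nup214 allele, and no Cre is named. The LSC gate is the one used for granulocyte-monocyte progenitors, so stage of maturation and leukaemia cannot be told apart. The labels do not say whether the 2 libraries of a group came from separate animals, and each value below is that of a single library.

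Ruvbl2 is an AAA+ ATPase that works with Ruvbl1 in the INO80, SRCAP and TIP60/p400 chromatin remodellers, which move nucleosomes or exchange histone variants, largely at gene starts. CUT&Tag uses an antibody to bring a transposase to chromatin, so cut fragments pile up where the antibody sat or where the transposase reached open DNA by itself. A wide peak is an unbroken stretch in which that pile-up stayed above the caller's threshold, and its width can follow sequencing depth and fragment length as well as the extent of binding. No control library was analysed here, and read depth was unknown. The labels name an anti-rabbit secondary antibody and not the host of the Ruvbl2 antibody, so how far the signal depends on that antibody was not tested.

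The wide regions at named genes cover promoters of several classes, and 6 are printed so that the sequence under these peaks can be seen beside the widths given further on. Each is the run of 250 bases before the annotated start, read 5′ to 3′ on the gene's strand, from RefSeq on assembly GRCm38.p6, whose coordinates are those of mm10. Capitals in these lines mark GGGCGG on either strand, which is the usual core of a GC box. They also mark CCAAT on either strand, the box of that name. The last letters in capitals are TATAAA, the usual core of a TATA box. Zfp36 (chr7:28379229-28379478, minus strand) encodes an mRNA decay factor and lay under the widest peak at an end of a named, not predicted, protein-coding gene. Junb (chr8:84978749-84978998, minus strand) encodes an AP-1 subunit. Mnt (chr11:74830674-74830923, plus strand) encodes a Max partner that opposes Myc. Ddit3 (chr10:127290543-127290792, plus strand) encodes the stress factor CHOP. Eef1a1 (chr9:78481725-78481974, minus strand) encodes the main elongation factor that brings aminoacyl-tRNA to the ribosome. H4c18 (chr13:21832198-21832447, minus strand) is a histone H4 gene.
Zfp36: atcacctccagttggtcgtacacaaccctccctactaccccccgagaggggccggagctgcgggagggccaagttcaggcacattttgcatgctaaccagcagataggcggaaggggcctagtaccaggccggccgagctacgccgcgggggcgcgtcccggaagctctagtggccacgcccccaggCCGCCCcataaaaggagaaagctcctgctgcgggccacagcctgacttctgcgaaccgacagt
Junb: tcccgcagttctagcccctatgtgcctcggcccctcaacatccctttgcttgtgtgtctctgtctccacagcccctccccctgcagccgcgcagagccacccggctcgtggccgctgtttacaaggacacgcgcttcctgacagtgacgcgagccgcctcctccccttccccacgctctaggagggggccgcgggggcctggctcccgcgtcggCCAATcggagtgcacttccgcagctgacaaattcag
Mnt: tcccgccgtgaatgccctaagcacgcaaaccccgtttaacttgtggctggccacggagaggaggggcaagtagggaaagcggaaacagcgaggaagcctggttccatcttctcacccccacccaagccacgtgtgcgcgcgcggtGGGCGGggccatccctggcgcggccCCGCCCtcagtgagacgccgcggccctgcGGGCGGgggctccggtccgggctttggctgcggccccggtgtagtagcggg
Ddit3: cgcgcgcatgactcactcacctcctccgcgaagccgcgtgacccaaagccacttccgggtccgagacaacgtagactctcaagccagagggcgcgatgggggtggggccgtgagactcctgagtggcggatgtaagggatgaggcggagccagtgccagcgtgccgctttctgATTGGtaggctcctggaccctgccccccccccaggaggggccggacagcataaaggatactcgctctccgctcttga
Eef1a1: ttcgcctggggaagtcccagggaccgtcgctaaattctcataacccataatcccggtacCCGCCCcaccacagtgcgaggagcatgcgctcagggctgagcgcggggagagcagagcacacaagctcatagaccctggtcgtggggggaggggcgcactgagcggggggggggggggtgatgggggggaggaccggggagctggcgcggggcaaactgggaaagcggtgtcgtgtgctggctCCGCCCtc
H4c18: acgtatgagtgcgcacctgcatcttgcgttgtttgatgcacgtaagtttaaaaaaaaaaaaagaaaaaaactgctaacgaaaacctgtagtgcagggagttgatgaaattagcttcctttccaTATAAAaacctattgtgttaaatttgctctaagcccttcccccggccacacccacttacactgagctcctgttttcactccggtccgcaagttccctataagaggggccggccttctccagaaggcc
GC content over these 250 bases was 64.8% for Zfp36, 66.4% for Junb, 70.0% for Mnt, 64.8% for Ddit3, 68.0% for Eef1a1 and 45.2% for H4c18. The histone promoter was thus the AT-rich one of the 6, and it was the one with the letters TATAAA.

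MicroRNA genes had an end at some wide regions, and the mature sequences of the best known are printed with the seed, bases 2 to 8, in capitals. Mir142, which is transcribed mainly in blood cells, is at a region on chr11:87753913-87756852. The Mir23a, Mir27a and Mir24-2 cluster is at chr8:84206035-84208261, and Mir191 and Mir425 are at chr9:108566105-108568503.
miR-142a-5p: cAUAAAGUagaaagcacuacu
miR-142a-3p: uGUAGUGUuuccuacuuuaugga
miR-23a-3p: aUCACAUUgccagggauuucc
miR-27a-3p: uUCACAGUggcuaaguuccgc
miR-24-3p: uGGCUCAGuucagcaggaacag
miR-191-5p: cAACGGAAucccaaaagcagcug
miR-425-5p: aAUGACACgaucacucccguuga
The 7 sequences have 7 different seeds. In all, 33 microRNA genes lay at 26 wide regions, and RefSeq gave mature sequences for 30 of them, 51 sequences with 50 seeds.

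Wide peaks were mostly found in replicate 2 of both cell types. LSC replicate 1 held 52 wide peaks among 206291 and LSC replicate 2 held 669 among 200608, against 50 among 153914 in HSC replicate 1 and 1172 among 272787 in HSC replicate 2. Per 10000 peaks this was 2.52 and 33.3 in LSC replicates 1 and 2, and 3.25 and 43.0 in HSC replicates 1 and 2. The cell types overlapped, and the libraries grouped by replicate number instead. The log2 number of wide peaks averaged 7.54 in LSC and 7.92 in HSC libraries (n = 2 each), a difference of -0.38. LSC minus HSC was 0.06 at replicate 1 and -0.81 at replicate 2 on the log2 scale. Replicate 1 of both groups shares a peak naming scheme in the files, and replicate 2 shares another.

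The width of ordinary peaks differed between the libraries in the same way. The median peak was 333 and 453 bp wide in LSC replicates 1 and 2, and 394 and 462 bp in HSC replicates 1 and 2. The shortest peak was 180 and 281 bp in LSC, and 224 and 291 bp in HSC. A width of 2000 bp was therefore 11.1 and 7.12 times the shortest peak in the LSC libraries, and 8.93 and 6.87 times in the HSC libraries. With a minimum of 8 times the shortest peak, an alternative chosen after the data were seen, 207 and 384 peaks entered in LSC replicates 1 and 2, against 92 and 601 in HSC replicates 1 and 2. The LSC minus HSC difference then turned positive, at 0.26 on the log2 scale. Without HSC replicate 2 it was 1.90 and without LSC replicate 1 it was 1.47, so no direction between the cell types held.

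**Figure D1:**
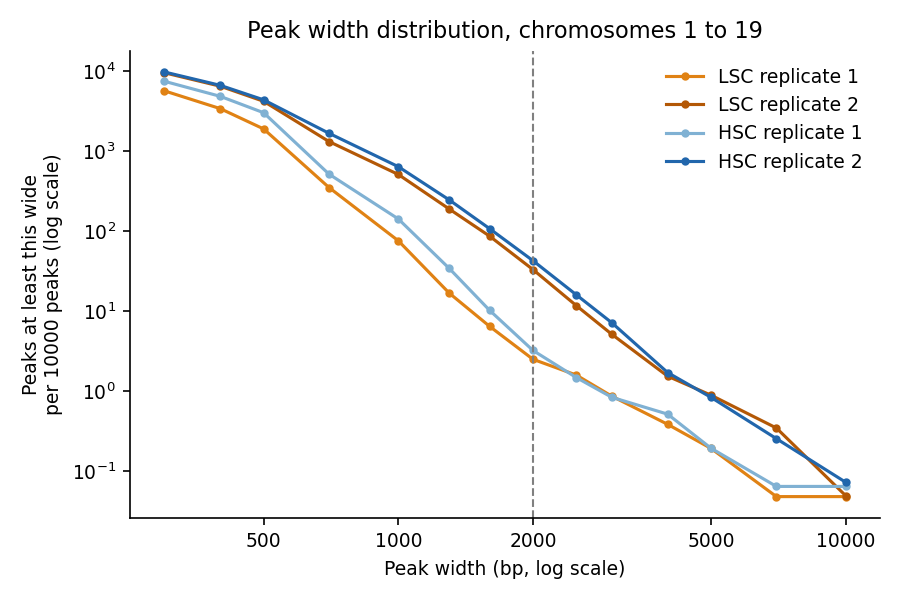
Number of peaks at least as wide as the value on the x axis (bp, log scale) per 10000 peaks of the same library (y axis, log scale), one line per library; the dashed line marks 2000 bp. The replicate 2 lines lie above the replicate 1 lines of both cell types at the dashed line, with 33.3 in LSC replicate 2 and 43.0 in HSC replicate 2 against 2.52 in LSC replicate 1 and 3.25 in HSC replicate 1.

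Wide peaks were a small and tall part of each list. They held 0.251% and 1.65% of the summed peak length in LSC replicates 1 and 2, and 0.26% and 2.04% in HSC replicates 1 and 2. Their median fold over the library's background, the authors' own value at the summit, was 69.5 and 32.6 in LSC, and 50.6 and 19.2 in HSC. All other peaks had a median fold of 11.3 and 9.11 in LSC, and 13.4 and 5.99 in HSC. Wide peaks were thus the taller ones in every list. In these lists 0 records of any width shared both ends, so every peak, wide or not, had 1 recorded summit. In wide peaks the summit lay at a median of 46.6% and 51.1% of the width in LSC, and 50.1% and 49.4% in HSC. Near the limit, 8 and 151 peaks within 100 bp above it stood just inside in LSC, and 6 and 209 in HSC, while 6 and 172 peaks within 100 bp below it stood just outside in LSC, and 16 and 309 in HSC. Median folds were 83.4 and 27.1 just inside and 51.0 and 26.0 just outside in LSC, and 57.0 and 16.5 just inside and 39.1 and 15.3 just outside in HSC. The limit thus cuts through a continuous range of widths and does not separate kinds of peak.

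A wide region was usually wide in 1 library, and in each of the others it was more often narrower than missing. Of the 1649 regions, 1432 (86.8%) were wide in 1 library, 184 in 2, 16 in 3 and 17 in all 4. LSC replicate 1 was wide at 47 regions, narrow at 1077 and without a peak at 525, and LSC replicate 2 was wide at 661, narrow at 795 and without a peak at 193. HSC replicate 1 was wide at 43, narrow at 926 and without a peak at 680, and HSC replicate 2 was wide at 1165, narrow at 435 and without a peak at 49. A peak of any width was present in all 4 libraries at 720 wide regions (43.7%), against 0.613% of all joined regions. That contrast is partly built in, because a longer region meets more peaks and the wide peak is one of them.

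**Figure D2:**
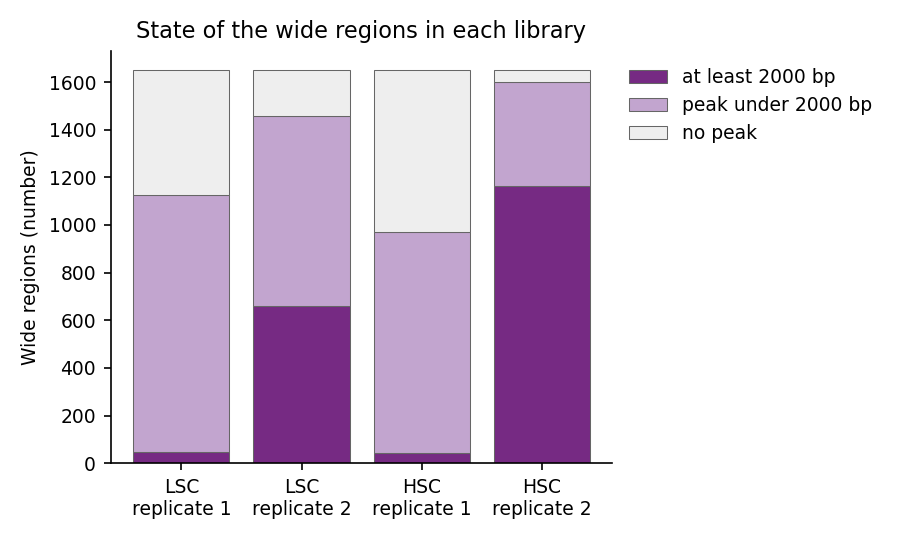
Number of the 1649 wide regions (y axis) that had a peak of at least 2000 bp, a narrower peak or no peak in each library (x axis, stacked bars). The dark part reaches 47 and 661 in LSC replicates 1 and 2, and 43 and 1165 in HSC replicates 1 and 2, while the pale part without a peak is 525 and 193 in LSC and 680 and 49 in HSC.

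The summit of a wide peak gives a narrower comparison, since it takes 1 position from 1 library and looks for it in the others. Of the summits of wide peaks in LSC replicate 2, 78.5% had a peak of HSC replicate 2 within 100 bp, against 37.9% for its mid-width peaks (at least 1000 and under 2000 bp) and 13.9% for its narrower peaks. Of the wide summits of HSC replicate 2, 61.9% had a peak of LSC replicate 2 within 100 bp, against 25.4% and 9.62%. Of the same summits, 44.7% of those of LSC replicate 2 were met in LSC replicate 1 and 34.2% of those of HSC replicate 2 in HSC replicate 1. The 52 wide summits of LSC replicate 1 were met at 90.4% in LSC replicate 2, 82.7% in HSC replicate 1 and 84.6% in HSC replicate 2. The 50 of HSC replicate 1 were met at 88.0% in both LSC libraries and 92.0% in HSC replicate 2. Positions of wide peaks thus recurred in the other cell type. Of the 47 regions wide in LSC replicate 1, 68.1% were also wide in HSC replicate 2 and 40.4% in HSC replicate 1. Of the 43 wide in HSC replicate 1, 58.1% were also wide in LSC replicate 2 and 44.2% in LSC replicate 1. Regions wide in a replicate 2 library were more often narrower than wide in each library of the other cell type. The 201 regions wide in both replicate 2 libraries were 30.4% of those wide in LSC replicate 2 and 17.3% of those wide in HSC replicate 2. Where LSC replicate 2 was wide and HSC replicate 2 was not, HSC replicate 2 had a narrower peak at 414 of 460 regions. Where HSC replicate 2 was wide and LSC replicate 2 was not, LSC replicate 2 had a narrower peak at 777 of 964.

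The widest region was at the start of the assembled part of chromosome 9, chr9:2999991-3038335, 334 bp from the microRNA gene Mir101c. Its widest peak was 38345 and 27136 bp in LSC replicates 1 and 2, and 36367 and 38345 bp in HSC replicates 1 and 2. The fold was 9029 and 1126 in LSC, and 2059 and 2282 in HSC. All 4 libraries were wide there, with folds that differed more between LSC replicates than between the cell types.

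Next came a cluster on chromosome 6. Its 8 wide regions lie between 47652472 and 47773222, beside Rn4.5s, a gene for a small rodent RNA that is repeated in tandem in the genome, and several predicted genes. The cluster was wide at 7 and 6 of the 8 regions in LSC replicates 1 and 2, and at 3 and 8 in HSC replicates 1 and 2. At Rn4.5s itself (chr6:47652472-47669144) the widest peak was 2683 and 7163 bp in LSC, and 4064 and 7576 bp in HSC. The highest fold of any peak there was 43.7 and 35.6 in LSC, and 36.1 and 32.2 in HSC. The region with the widest single peak of the 8, at chr6:47741774-47754961 beside the predicted genes Gm52861 and Gm52862, had 2815 and 9610 bp in LSC, and 1475 and 12652 bp in HSC. There LSC replicate 1 broke into 7 peaks and HSC replicate 1 into 9, while HSC replicate 2 ran as 1 peak.

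Other members of the 10 widest lay at 5S ribosomal RNA genes, at a pseudogene, between genes and at 1 pair of named protein-coding genes. At chr8:123615961-123623681, which holds the 5S ribosomal RNA genes n-R5s146 and n-R5s149, LSC replicate 2 had a peak of 7721 bp with a fold of 23.7. LSC replicate 1 had at most 624 bp there, HSC replicate 1 453 bp and HSC replicate 2 626 bp, so this region was wide in a single library. Within Sfi1, a centrosome protein gene, chr11:3183574-3200041 covered the pseudogene Fau-ps2, with 6873 and 8546 bp in LSC, and 4679 and 8586 bp in HSC. At chr11:106943374-106949868, 22225 bp from the nearest gene Gm8339, the widest peak was 1205 and 6144 bp in LSC, and 5337 and 6332 bp in HSC. The Zfp36 and Med29 region, chr7:28378875-28387260, was the single one of the 10 at ends of named, not predicted, protein-coding genes, and its values stand with the immediate early genes.

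The 17 regions wide in all 4 libraries were mostly away from protein-coding genes' ends, since 11 were at a gene end but 4 at that of a protein-coding gene. Those 4 were at Eapp and at predicted genes of the chromosome 6 cluster. Of all 1649 wide regions, 50.1% were at a protein-coding gene's end, and the share over all joined regions was not computed. Rn18s-rs5, a copy of the 18S ribosomal RNA sequence, and the transcript AY036118 lay under a peak of 5855 and 5855 bp in LSC, and 5851 and 5860 bp in HSC (chr17:39842987-39848846). Its fold was 4975 and 605 in LSC, and 403 and 571 in HSC. The predicted genes Gm10222 and Gm10925 (chr1:24611537-24616182) lay under 4644 and 4646 bp in LSC, and 4643 and 4646 bp in HSC. Widths at these regions thus matched to within a few bases in all 4 libraries, although the shortest peak differed between them. An intergenic region, chr14:19415710-19419703, had 3994 and 3994 bp in LSC, and 3934 and 3994 bp in HSC, so HSC replicate 1 was a little narrower there. It had the folds 29478 and 5028 in LSC, and 8623 and 9168 in HSC. Of the 17 regions, 7 had a fold of at least 200 in every library, a level chosen after the values were seen, and 8 of all 1649 did. Ribosomal RNA genes are present in many copies of which the assembly places few, and reads from many copies then map to few places. The part of copy number in these regions was not tested.

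The next regions were also wide in all 4 libraries and mostly lay inside a gene. Folds at Thada, Stam2, Ppa2, Eapp and Ppp6r1 were lower than at Rn18s-rs5 in every library, but above the median of peaks that were not wide. These regions do not form a separate kind. Gm20590, also wide in all 4 and in a gene body, had folds of 2186 and 418 in LSC, and 2342 and 433 in HSC. At 2700054A10Rik, also wide in all 4, the folds were 3178 and 813 in LSC, and 3659 and 770 in HSC. Both thus exceeded Rn18s-rs5 in at least HSC replicate 1. In Thada, the widest peak was 2785 and 2990 bp in LSC, and 2569 and 2552 bp in HSC, with folds of 50.1 and 26.9 in LSC, and 56.0 and 16.3 in HSC. In Stam2, which encodes an endosomal sorting adaptor, it was 2926 and 2716 bp in LSC, and 2490 and 2852 bp in HSC. In Ppa2, a mitochondrial pyrophosphatase gene, it was 2219 and 3319 bp in LSC, and 2202 and 2474 bp in HSC. At each of these 3 the strongest summit was in the gene body. Eapp, whose product binds E2F factors, was at a gene end, with 2900 and 2001 bp in LSC, and 2126 and 2759 bp in HSC. In Ppp6r1, a phosphatase regulatory subunit gene, the widest peak was 2615 and 2271 bp in LSC, and 3197 and 3165 bp in HSC. The folds there were 162 and 45.7 in LSC, and 117 and 43.6 in HSC. The LSC widths lay above the HSC widths by little in Thada and below them in Ppp6r1, and the cell types overlapped at Stam2, Ppa2 and Eapp.

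Regions wide in both replicate 2 libraries and in no replicate 1 library numbered 169, and 115 of them (68.0%) were at a protein-coding gene's end. That share was 50.1% over all wide regions and was not computed over all joined regions. By presence of a peak of any width, 3.51% of all joined regions were in both replicate 2 libraries and in no replicate 1 library. At 130 of the 169, both replicate 1 libraries had a narrower peak. At Mbd6 and Ddit3 (chr10:127287677-127293036) the widest peak was 854 and 5360 bp in LSC, and 1229 and 4508 bp in HSC. At Sin3a, the scaffold of a histone deacetylase complex, it was 936 and 5774 bp in LSC, and 1428 and 3630 bp in HSC. At Rhog, a small GTPase gene, it was 297 and 3604 bp in LSC, and 910 and 5554 bp in HSC. The choice of these regions fixes that both replicate 2 widths exceed both replicate 1 widths. At H3f3b, which encodes a replacement histone H3, LSC had 590 and 3980 bp, while HSC replicate 1 had no peak and HSC replicate 2 had 4681 bp. Genes of this paragraph were ranked after the data were seen, by the smaller of the 2 replicate 2 widths.

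**Figure D3:**
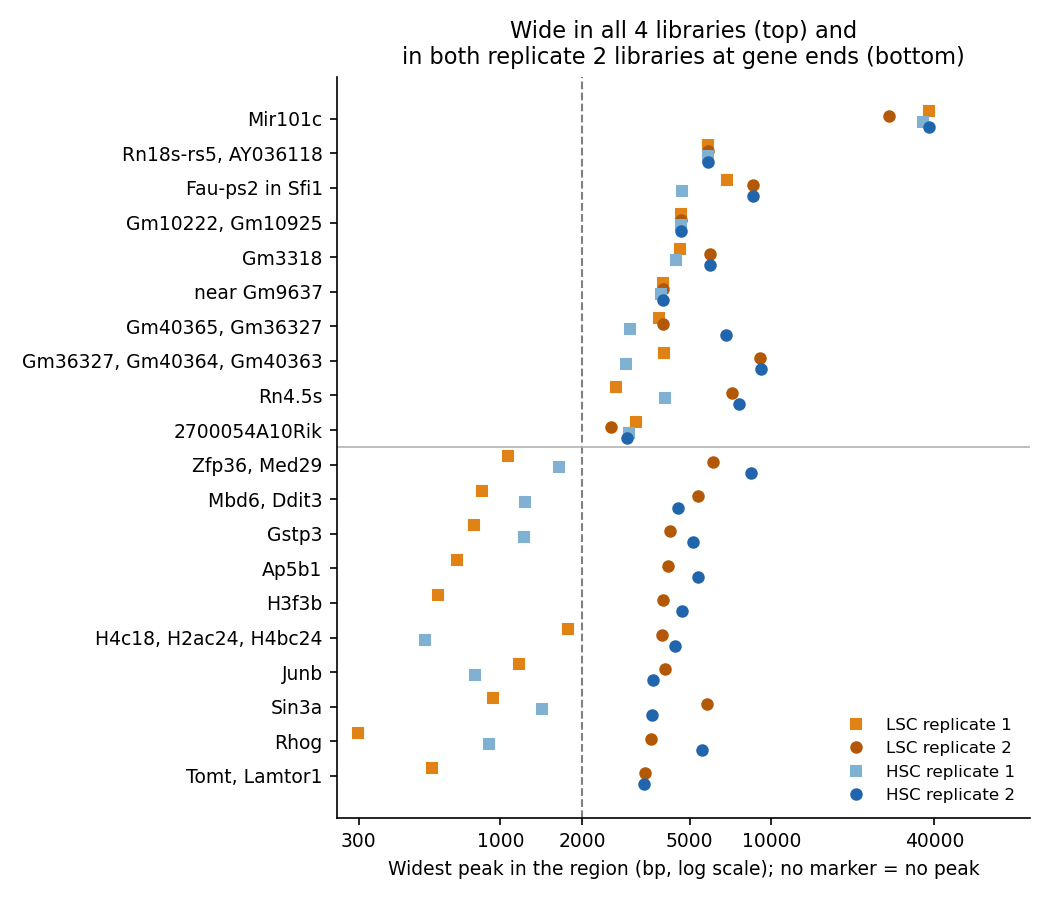
Widest peak in each library (x axis, bp, log scale) at the first 10 regions wide in all 4 libraries by smallest width (above the grey line) and at the first 10 regions wide in both replicate 2 libraries alone at a protein-coding gene end (below it); squares are replicate 1, circles replicate 2, orange LSC, blue HSC. Above the line all markers lie right of the dashed 2000 bp line, while below it the squares lie left of it, as for Zfp36 with 1071 bp in LSC replicate 1 and 1640 bp in HSC replicate 1.

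Few regions were wide by cell type. Both LSC and no HSC library were wide at 2 regions (0.121%), and both HSC and no LSC library at 5 (0.303%). Over all joined regions, by presence of a peak, 1.93% were in both LSC and no HSC library and 2.10% in the reverse. In Cmc1, which encodes a factor for cytochrome oxidase assembly, the widest peak at chr9:118090004-118093016 was 2839 and 2861 bp in LSC, against 907 and 799 bp in HSC. In the pseudogene Pisd-ps1 it was 2064 and 2647 bp in LSC, against 1940 and 1764 bp in HSC. The choice of the regions in this paragraph fixes which cell type has the larger widths. The Cmc1 widths lay far apart, while the Pisd-ps1 widths straddled the limit by little. At Eif4g2, a translation initiation factor gene, the widest peak was 292 and 1381 bp in LSC, against 2318 and 2089 bp in HSC. At Phf12, which encodes a Sin3-associated zinc finger protein, it was 570 and 1153 bp in LSC, against 2184 and 2274 bp in HSC. Inside Sox5, a SOX factor gene, it was 1801 and 1994 bp in LSC, against 2247 and 3667 bp in HSC.
The 2 other regions wide in HSC alone lay at the predicted genes Gm51571 and Gm51572, with 989 and 1966 bp in LSC against 3052 and 6081 bp in HSC, and 5989 bp from Apba2, with 940 and 1136 bp in LSC against 2840 and 3667 bp in HSC. All 7 regions had a peak of some width in each of the 4 libraries.

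By presence of any peak, 11 wide regions (0.667%) had a peak in both LSC and no HSC library, and 24 (1.46%) in both HSC and no LSC library, each below the 1.93% and 2.10% of all joined regions. The widest of the LSC kind was at the end of Samd12 (chr15:53899805-53902569), with peaks of 555 and 2765 bp in LSC replicates 1 and 2 and none in HSC. Creg1, a lysosomal protein gene, had 201 and 2291 bp in LSC and none in HSC. Of the HSC kind, a region inside Rbm19 had no peak in LSC, and 247 and 2923 bp in HSC. One at the ends of Rpl35a and Lmln had no peak in LSC and 2441 bp in HSC replicate 2, while the 800 bp peak of HSC replicate 1 covered 0.369% of it and lay nearly all outside. In each of these 4 a single library, always replicate 2, was wide.

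Wide regions were at gene ends far more often than peaks at large. Within 1000 bp of the start or end of a RefSeq gene lay 968 regions (58.7%, exact Clopper-Pearson 95% interval 56.3 to 61.1, counting error only), against 9.77% of all joined regions and 9.65% of those never wide. A further 451 (27.3%) lay in a gene body and 230 (13.9%) between genes. A long region reaches a window more easily, so the single strongest summit was also placed, and it lay at a gene end in 739 regions (44.8%). By library, the summits of wide peaks were at a gene end in 26.9% and 52.8% of cases in LSC replicates 1 and 2, and 42.0% and 42.9% in HSC replicates 1 and 2. For mid-width peaks the shares were 18.1% and 26.9% in LSC, and 17.6% and 19.6% in HSC. For narrower peaks they were 8.89% and 9.59% in LSC, and 8.42% and 8.6% in HSC. The share climbed with width in every library. An end of a protein-coding gene was met by 826 regions (50.1%), and ends of 2 or more such genes by 310 (18.8%). The same shares over all joined regions were not computed.

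The annotated starts of the RefSeq promoter table place the peaks by strand. In LSC replicate 2, 43.2% of wide peaks covered at least 1 protein-coding start, and in HSC replicate 2, 33.3%. Mid-width peaks did so in 15.2% of cases in LSC replicate 2 and 9.57% in HSC replicate 2. Over a single start, wide peaks of the replicate 2 libraries spread about evenly to both sides. In LSC replicate 2 the 208 such peaks reached a median of 1276 bp upstream and 1129 bp into the gene, and in HSC replicate 2 the 271 such peaks reached 1208 bp upstream and 1222 bp into the gene. The few such peaks of the replicate 1 libraries reached further upstream, 3 in LSC with medians of 2479 bp upstream and 1236 bp into the gene, and 9 in HSC with 1662 bp and 898 bp. Starts on both strands lay under 47 wide peaks in LSC replicate 2 and 69 in HSC replicate 2.

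**Figure D4:**
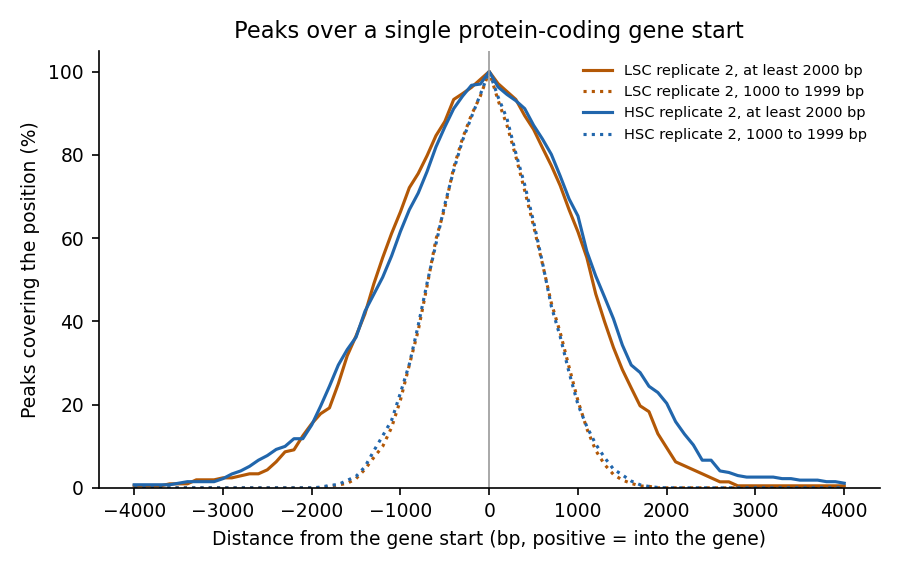
Share of peaks over a single protein-coding start (y axis, %) that cover each distance from the start (x axis, bp, positive into the gene), for wide peaks (solid) and mid-width peaks of at least 1000 and under 2000 bp (dotted) of LSC replicate 2 and HSC replicate 2; peaks were chosen to cover position 0, so all lines reach 100 there. The solid lines fall off about evenly on both sides, with a median upstream reach of 1276 bp in LSC replicate 2 and 1208 bp in HSC replicate 2.

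Promoters under wide regions were richer in CpG than promoters at large and like those under the next widest peaks. The 851 windows of 300 bp around protein-coding starts that met a wide region had a median GC content of 60.3% and a median observed over expected CpG ratio of 0.769. The 3289 windows whose widest peak was of mid width had 61.0% and 0.792, the 6645 under narrower peaks 58.0% and 0.644, and the 9299 without a peak 52.7% and 0.358. Windows with a ratio of at least 0.6 and a GC content of at least 50% made up 71.6%, 73.1%, 51.5% and 31.2% of those 4 classes. Base composition thus differed between promoters with and without a peak and hardly between the 2 widest classes. On either strand GGGCGG was in 67.2% of windows in wide regions, against 47.0% of all 20084 windows. CCGGAA, the core read by ETS factors, was in 29.8%, against 19.1%, and CCAAT in 43.8%, against 38.1%. TATAAA was in 8.23%, against 12.7%. Windows under mid-width peaks had 66.3% for GGGCGG and 33.7% for CCGGAA, so neither was particular to wide regions. The other searched letters were CGCATGC in 5.64% of windows in wide regions against 4.5% of all, GCCATNT in 136 of the 851 windows against 2806 of all, CACGTG in 10.8% against 7.89% and TGACGT in 13.7% against 8.59%. Windows under mid-width peaks had 7.91% for CGCATGC, 608 of 3289 for GCCATNT, 10.9% for CACGTG and 14.7% for TGACGT. These letters too were thus not particular to wide regions. None of the 8 contains another, and a match is a description and not a binding site.

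Among gene lists, those for histones and immediate early genes were met most often. Of 20661 protein-coding genes, 5.49% had a wide region at an end (6.14% of the 18481 with any peak there), and 4.02% had the region's strongest summit there. Replication-dependent histone genes, which package new DNA in S phase, had one at 35 of 60 (58.3%), in 17 regions because the genes are clustered. The immediate early genes, switched on by stimulation or by cell handling, had one at 10 of 20 (50.0%). Splicing factors had 13 of 39 (33.3%), translation factors 9 of 28 (32.1%), the Myc, p53 and BCL2 families 8 of 28 (28.6%) and heat shock genes 6 of 26 (23.1%). Cytosolic ribosomal proteins had 13 of 75 (17.3%). The share of 5.49% is the background for these counts, but genes of a cluster share regions, and the lists were chosen with earlier results of these data known, so no test is given. Wide regions at both ends were found for 8 of the listed genes, and the values below are those of the wider region unless both are given.

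**Figure D5:**
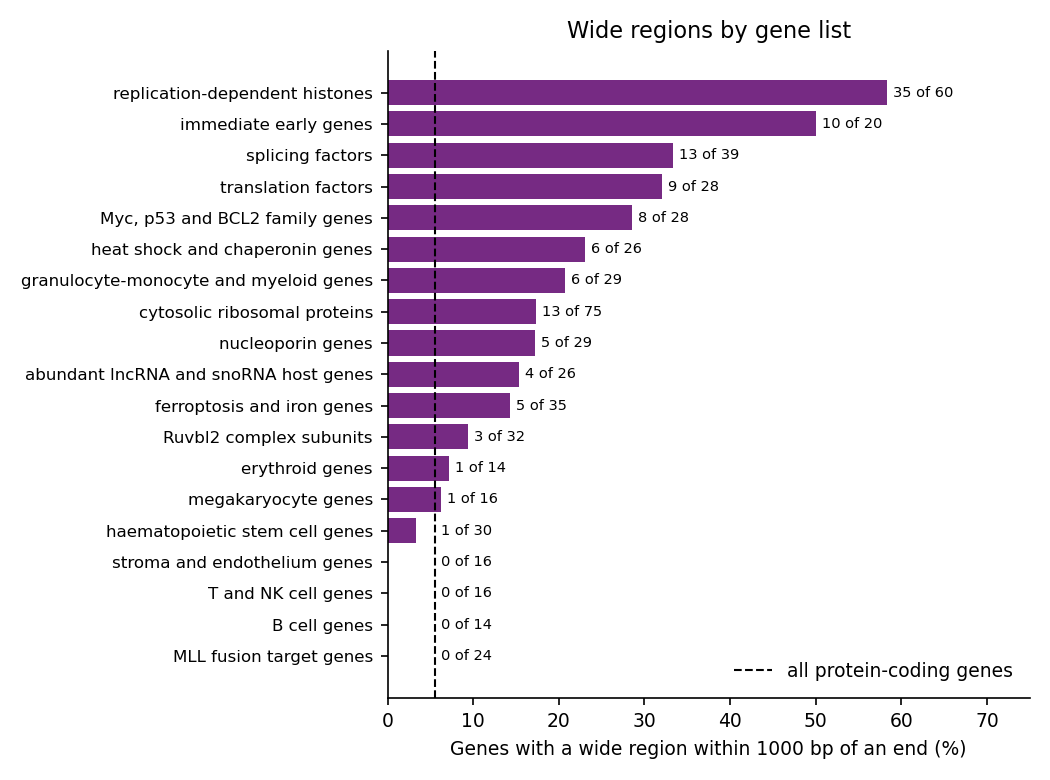
Share of each list's genes with a wide region within 1000 bp of an end (x axis, %), with the counts beside the bars; the dashed line is the 5.49% of all protein-coding genes. Histone genes reach 58.3% and immediate early genes 50.0%, while the lists for MLL fusion targets, B cells, T and NK cells and stroma have none.

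Among the histone genes, 3 and 21 were at a wide peak in LSC replicates 1 and 2, and 0 and 32 in HSC replicates 1 and 2. At H4c18 and H2ac24 (chr13:21830684-21835328) the widest peak was 1782 and 3963 bp in LSC, and 525 and 4419 bp in HSC. At H2ac11, H2bc11 and H4c9, which share a region, it was 801 and 4411 bp in LSC, and 1319 and 2382 bp in HSC. At H2ac23, H2bc23 and H4c17 it was 3102 and 3967 bp in LSC, and 836 and 3930 bp in HSC. That region held the 3 histone genes that were wide in LSC replicate 1. The 35 genes include members for each core histone and for H1, such as H1f4 with 332 and 1122 bp in LSC, and 413 and 2162 bp in HSC.

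Immediate early genes, like 95.7% of all wide regions, were wide in no replicate 1 library, at 0 and 7 of 20 in LSC replicates 1 and 2, and 0 and 8 of 20 in HSC replicates 1 and 2. At Zfp36 and Med29, whose promoter is the first of those printed, the widest peak was 1071 and 6081 bp in LSC, and 1640 and 8386 bp in HSC. The fold there was 102 and 79.6 in LSC, and 56.0 and 51.3 in HSC, so the replicate 1 libraries had a tall peak that was narrow. At Junb it was 1176 and 4066 bp in LSC, and 808 and 3652 bp in HSC. At Ier2 it was 402 and 2372 bp in LSC, and 1182 and 3106 bp in HSC. Junb and Ier2 were thus wide in both replicate 2 libraries and in no replicate 1 library, which by itself fixes the order of their widths. Atf3, a stress-induced repressor gene, had 195 and 3010 bp in LSC, and 294 and 905 bp in HSC. Jun had 756 and 2894 bp in LSC, and 928 and 2217 bp in HSC. Atf3 and Dusp1 were wide in LSC replicate 2 and not in HSC replicate 2, while Jund, Ier3 and Btg2 were wide in HSC replicate 2 and not in LSC replicate 2. Egr1 had a wide peak of LSC replicate 2 at one end of the gene, with 902 and 2031 bp in LSC, and 601 and 966 bp in HSC. At its other end HSC replicate 2 was wide, with no peak and 663 bp in LSC, and 329 and 2130 bp in HSC.

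Genes of the translation machinery showed the same dependence on the library. Eef2, which moves the ribosome along the mRNA, had 679 and 1077 bp in LSC, and 361 and 3034 bp in HSC. At Eef1a1 LSC had no peak in replicate 1 and 715 bp in replicate 2, while HSC had none in replicate 1 and 3032 bp in replicate 2. Pabpc1, the poly(A)-binding protein gene, had 714 and 2836 bp in LSC, and no peak and 976 bp in HSC. Eif4a1, an initiation helicase gene, was wide in both replicate 2 libraries, with 191 and 2089 bp in LSC, and 327 and 2246 bp in HSC. Eef2 and Eef1a1 were wide in HSC replicate 2 and Pabpc1 in LSC replicate 2. Of the ribosomal protein genes, Rpl29 had 395 and 596 bp in LSC, and 245 and 2893 bp in HSC. Among splicing factors, Ptbp1 had 196 and 1463 bp in LSC, and no peak and 3709 bp in HSC. Ddx5, an RNA helicase gene, had 882 and 3119 bp in LSC, and 358 and 2316 bp in HSC. Hnrnpl had 731 and 2516 bp in LSC, and 698 and 1961 bp in HSC.

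Of the Myc, p53 and BCL2 families, Mnt had 1338 and 2456 bp in LSC, and 1550 and 5594 bp in HSC. Its folds of 126 and 137 in LSC, and 115 and 113 in HSC were close to each other. Bbc3, which encodes the pro-apoptotic protein PUMA, had 513 and 4517 bp in LSC, and 225 and 1069 bp in HSC. Trp53, the p53 gene, had 368 and 3372 bp in LSC, and 420 and 1573 bp in HSC. Bid, another pro-apoptotic gene, had 280 and 776 bp in LSC, and 227 and 2857 bp in HSC. Bbc3 and Trp53 were thus wide in LSC replicate 2 alone, and Bid in HSC replicate 2 alone. The stress-inducible chaperone gene Hsp90aa1 had 679 and 2734 bp in LSC, and 1534 and 6193 bp in HSC. Its constitutive relative Hsp90ab1 had 344 and 2629 bp in LSC, and no peak and 475 bp in HSC at one end, and 638 and 2236 bp in LSC, and 620 and 2495 bp in HSC at the other.

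Of the marker genes of cell identity, the myeloid list stood above the 5.49% of all protein-coding genes, while the other lists had 0 or 1 gene, about what that share gives for their size. Myeloid genes had a wide region at 6 of 29 (20.7%), HSC genes at 1 of 30 (Egr1, also on the immediate early list), erythroid genes at 1 of 14 (Klf1) and megakaryocyte genes at 1 of 16 (Nfe2). Targets of MLL fusions had 0 of 24, B cell genes 0 of 14, T and NK cell genes 0 of 16, and stroma and endothelium genes 0 of 16. By the region's strongest summit, 4 of 29 myeloid genes (13.8%) were met, against 4.02% of all protein-coding genes. The HSC, erythroid and megakaryocyte lists had 0 by that measure. Tyrobp, an adaptor of myeloid receptors, had 435 and 2193 bp in LSC, and 298 and 2418 bp in HSC at a region overlapping the gene. A wider region near its other end, outside the gene, had 761 and 2602 bp in LSC, and 802 and 4402 bp in HSC. Spi1, the gene of the myeloid factor PU.1, had 1080 and 1543 bp in LSC, and 2020 and 1549 bp in HSC. Spi1 was the one myeloid gene that was wide in HSC replicate 1, just past the limit. Prtn3, a granule protease gene, had 695 and 1084 bp in LSC, and 1198 and 3078 bp in HSC. Csf2ra, a GM-CSF receptor chain gene, had 634 and 2416 bp in LSC, and 819 and 1720 bp in HSC. Myeloid genes were wide at 0 and 3 of 29 in LSC replicates 1 and 2, and at 1 and 3 in HSC replicates 1 and 2, so the cell types were alike in number.

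The study's subject is the nucleoporin Nup214 and ferroptosis, an iron-dependent form of cell death driven by lipid peroxidation. Nup214 was not at a wide region, but 5 of 29 nucleoporin genes (17.2%) were, beside 5.49% of all protein-coding genes. Nup88, whose product binds Nup214 on the cytoplasmic face of the pore, had 411 and 1523 bp in LSC, and 579 and 3054 bp in HSC. Nup133 had no peak and 2011 bp in LSC, and no peak and 1108 bp in HSC. Nup85 was wide in LSC replicate 2 with 2022 bp, and Nup107 and Ranbp2 in HSC replicate 2 with 2235 and 2133 bp. Of ferroptosis and iron genes, 5 of 35 (14.3%) were met, beside the same 5.49%. Keap1, which marks Nrf2 for degradation, had no peak and 2963 bp in LSC, and no peak and 965 bp in HSC. Nfe2l2, the Nrf2 gene, had 1384 and 2450 bp in LSC, and 1467 and 1165 bp in HSC. Gpx4, the peroxidase that removes lipid peroxides, had 194 and 2093 bp in LSC, and no peak and 1201 bp in HSC. These 3 were wide in LSC replicate 2 alone. Ftl1, a ferritin chain gene whose region also reaches Bax, had 460 and 1979 bp in LSC, and no peak and 2738 bp in HSC, just under the limit in LSC replicate 2. Subunits of the Ruvbl2 complexes had 3 of 32 (9.38%), namely Morf4l1, Mcrs1 and Brd8. Beside the 5.49%, no difference is read from so small a count. At Brd8 the widest peak was 1311 and 2069 bp in LSC, and 1853 and 1188 bp in HSC.

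Genes for small and noncoding RNAs were met in proportions that varied by class, beside 3.20% of all 47038 genes. Transfer RNA genes had a wide region at 30 of 391 (7.67%) in 15 regions, and genes annotated as ribosomal RNA at 6 of 61 (9.84%) in 2 regions. These 2 are the region of Rn4.5s, the small rodent RNA gene placed in this class, and the 5S region on chromosome 8. The 5S region, which holds the rest of these genes, was wide in LSC replicate 2 alone. Small nuclear RNA genes had 34 of 931 (3.65%), small nucleolar RNA genes 24 of 1286 (1.87%), microRNA genes 33 of 1136 (2.9%), long noncoding RNA genes 186 of 12408 (1.5%) and pseudogenes 44 of 8884 (0.495%). Rn7sk, whose RNA holds the elongation factor P-TEFb inactive, had 501 and 2732 bp in LSC, and 808 and 2248 bp in HSC. Rnu5g, a spliceosomal U5 gene, had 734 and 2935 bp in LSC, and 755 and 2101 bp in HSC. Rnu11, of the minor spliceosome, had 479 and 529 bp in LSC, and 1030 and 2669 bp in HSC. Rn7sk and Rnu5g were wide in both replicate 2 libraries, and Rnu11 in HSC replicate 2 alone. Malat1 and Neat1, whose long RNAs stay in nuclear speckles and paraspeckles, lie close together on chromosome 19. Malat1 had 1659 and 3528 bp in LSC, and 2717 and 2617 bp in HSC, and Neat1 had 1826 and 3999 bp in LSC, and 1077 and 2654 bp in HSC. Malat1 was wide in 3 libraries and Neat1 in both replicate 2 libraries.

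At Mir142 the wide peak ended just before the hairpin, so the printed mature sequences lie beside it and not under it. Its width was 520 and 2578 bp in LSC, and 1131 and 2568 bp in HSC, with folds of 55.8 and 52.3 in LSC, and 42.9 and 27.3 in HSC. The replicate 2 widths of the 2 cell types were thus nearly equal. At the Mir23a cluster it was 398 and 816 bp in LSC, and 585 and 2227 bp in HSC, and the mature sequences again lie beyond the peak. At Mir191 and Mir425 it was 654 and 1798 bp in LSC, and 294 and 2399 bp in HSC. Both of these were wide in HSC replicate 2 alone.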

How the data were processed

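Regions bound in Ruvbl2 CUT&Tag were measured in 2 LSC and 2 HSC libraries, grouped by the sample titles. Per the submitters' processing notes, FastQC 0.11.5, Bowtie2 2.2.9, MACS2, ChIPseeker and build mm10 were used. For MACS2, no version or threshold is stated in these sources, nor are duplicate handling or read totals. Peaks were called per library, as there is a deposited list for each. The deposited fold is the ratio of summit pile-up to the library's background, and the deposited score, −log10 p-value and −log10 q-value describe that pile-up. They were calculated within a list. Folds of different libraries are set side by side as a description and were not adjusted between libraries. Where a library had several peaks in a region, the width given is the largest and the fold the highest. These can belong to different peaks.

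Peaks on chromosomes 1 to 19 were kept, records sharing both ends were reduced to 1, and widths of at least 2000 bp chose the regions (overlap of 1 bp). Gene ends were 1000 bp either side of both ends in a RefSeq table of GRCm38.p6, and starts came from its promoter table. Python 3.11.15 with pandas 2.3.3, numpy 2.4.6, scipy 1.17.1 and matplotlib 3.10.9 was used. The merging was tested on simulated data with regions planted far apart, in which 600 of 600 came back with their pattern. Neighbouring regions and regions broken into several peaks, as in the chromosome 6 cluster, were not simulated.

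Regions, gene lists and tests were chosen with earlier results of these data known. Named were the 10 widest regions, those wide in all 4 libraries, those wide in 1 cell type, and up to 4 genes per list by width, with others added after values were seen. The planned exact permutation test of the number of wide peaks rests on the choosing value and cannot go below 0.333 with 2 against 2 libraries, so its p is not used. Alternatives changed the width limit, q limit, overlap, gene window, gene class and libraries. Near-identical copies, such as histone and small RNA genes, can share reads, so their values are uncertain. Chromosomes X, Y and M and unplaced sequence were left out of the main counts. Some genes that the naming rule selects are not reported here.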

Additional observations from a re-analysis of the deposited data

Results flagged for a closer look

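Wide peaks were also present on sequences that the counts above leave out. On the X chromosome there were 8 in LSC replicate 2 and 18 in HSC replicate 2, while LSC replicate 1 and HSC replicate 1 had 1 each, under the limit of 3 counts used here. On unplaced or patch sequences there were 10 and 16 in LSC replicates 1 and 2, and 10 and 17 in HSC replicates 1 and 2, with widest peaks of 47594 and 47017 bp in LSC, and 40395 and 52213 bp in HSC. Replicate 2 of both cell types thus held more of them than replicate 1, as on chromosomes 1 to 19. No control library was analysed here.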

How the results depend on the processing

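The number of wide regions followed the limit: 1649 became 5511 at 1500 bp, 263 at 3000 bp, 617 with the 200 widest peaks per library and 1026 at 8 times the shortest peak, and ranged from 702 to 1639 when 1 library was left out. Regions wide in all 4 libraries were 40 at 1500 bp and 7 at 3000 bp, and 18 to 26 when 1 library was left out and the other 3 were required. Regions wide in both LSC alone were 5 with the 200 widest peaks, 4 at 8 times the shortest peak, 10 at 1500 bp and 0 at 3000 bp, and 2 to 459 with 1 library left out. Those wide in both HSC alone were 17 at 1500 bp and 2 at 3000 bp, and 6 to 957 with 1 library left out. The largest of these values came without LSC replicate 1 (459) and without HSC replicate 1 (957), where a single replicate 2 library stood for its cell type.

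The share at a gene end was 44.9% at 1500 bp, 69.2% at 3000 bp, 54.1% with the 200 widest peaks, 69.2% with windows of 3000 bp, 50.1% with protein-coding genes, 44.8% by the strongest summit and 57.1% to 65.7% with 1 library left out. The LSC minus HSC log2 number of wide peaks turned from -0.38 to 0.26 at 8 times the shortest peak and ranged from -2.65 to 1.90 with 1 library left out. With the replicate number as a block it was -0.38, and deviations of the 2 replicate 1 libraries correlated at -0.03 over 720 regions. That correlation is over regions chosen by width and leaves out any shift shared by all of them, so it cannot decide on a pairing. No pairing was used in the counts above, although peak widths and naming schemes followed the replicate number. The count of regions with more than 1 summit was 0 under every alternative, which was fixed in advance, since no peak of any width had more than 1 recorded summit. The cause of these changes was not tested. Depth was unknown, so a region without a peak may be one not detectable at that library's depth.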

Other observations

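Wide regions were spread over all 19 autosomes, with 175 on chromosome 7, 149 on chromosome 11 and 119 on chromosome 17, and 23 on chromosome 18. These counts are not set against the length or the peak number of each chromosome. Of the 1649 regions, 280 (17.0%) lay within 10000 bp of another, and the same share over all joined regions was not computed. Where a library was not wide, its signal was at times broken into several peaks: LSC replicates 1 and 2 had 2 or more peaks at 27.0% and 28.1% of the regions in which they were not wide, and HSC replicates 1 and 2 at 15.7% and 36.8%. The mitochondrial chromosome was covered by a single peak of 16299 bp in each of the 4 libraries.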
